A study of Mus musculus with 22 samples.

Results

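The Usp17-like genes encode deubiquitinating enzymes, which take ubiquitin off other proteins and so alter their stability or activity. The Tdpoz genes encode proteins with a TRAF (MATH) domain and a BTB/POZ domain, the domain pair of Spop, which brings substrates to the ubiquitin ligase built on Cul3. Both families consist of similar gene copies, and transcripts of both are known from the mouse embryo around the time its own genome is first switched on. The members were chosen by gene name: Usp17la, Usp17lb, Usp17lc, Usp17ld and Usp17le, and Tdpoz1, Tdpoz2, Tdpoz3, Tdpoz4 and Tdpoz5. They are 10 of the 55335 genes in the table.

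The study lowered the histone variant H2A.Z in B6D2F1 mouse embryos by injecting zygotes with siRNA and sequenced polyA RNA at 3 stages. Knockdown (KD) zygotes received about 10 pL of a 20 µM mix of siRNAs at 20 to 22 h after the hormone hCG. Control and KD embryos were collected as 2-cell embryos at 43 to 44 h, as morulae at 78 h and as blastocysts at 94 h. Control libraries numbered 4 at each stage, and KD libraries numbered 3 for 2-cell embryos, 3 for morulae and 4 for blastocysts. What the control zygotes of these libraries received is not given in the labels used here. Each library was made from 15 whole embryos, so fewer cells that hold a transcript and less of it per cell cannot be told apart. Control and KD replicates are separate libraries, and the p-values measure only the spread between these samples.

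All levels are FPKM as deposited by the authors, which divides the fragments of a gene by its length and by the depth of its library. Fold changes are differences of mean log2(FPKM + 1) after scaling between libraries, tested with limma over the genes with at least 1 FPKM in at least 3 libraries of a fit. A gene is called when its p adjusted over all genes tested is under 0.05 and its log2 fold change is beyond 1 in size. The added 1 shrinks fold changes of genes near or under 1 FPKM, so the levels are given beside them.

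The siRNA target was low in KD embryos at each stage. H2afz, the more abundant of the 2 genes for H2A.Z, averaged 1141 FPKM (SD 160, 4 libraries) in controls of the 2-cell stage, against 222 (SD 168, 3 libraries) under KD. It averaged 1357 (SD 150, n = 4) and 28.3 (SD 2.39, n = 3) in morulae, and 2272 (SD 330, n = 4) and 60.6 (SD 6.33, n = 4) in blastocysts. Its log2 fold change by limma was -5.41 in morulae (adjusted p 9.72e-08) and -5.19 in blastocysts (adjusted p 3.63e-08). In 2-cell embryos it was -2.53, and its adjusted p of 0.544 was the lowest of all 12160 genes tested there. The KD 2-cell libraries ran from 112 to 415 FPKM, with a median of 139. Without KD replicate 1, H2afz was called there (-3.12, limma adjusted p 0.000909). H2afv, the other H2A.Z gene, was lower by limma in morulae (-2.94, adjusted p 2.92e-06) and blastocysts (-1.86, adjusted p 7.98e-05).

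Markers set the stage of each group. The 5 markers of 2-cell embryos (Zscan4c, Zscan4d, Zfp352, Tcstv1, Tcstv3) summed to a median of 448 FPKM in control 2-cell embryos, 11.5 in control morulae and 2.35 in control blastocysts. The sum of 7 markers of later embryos (Pou5f1, Nanog, Sox2, Cdx2, Gata3, Krt8, Krt18) ran the other way, with medians of 5.43, 237 and 1308. Not every marker did so throughout. In controls Pou5f1 averaged 31.9 in morulae and 14.0 in blastocysts, and Sox2 0.381 in 2-cell embryos and 0.125 in morulae. KD embryos had lower later-embryo sums than controls, with medians of 120 in morulae and 828 in blastocysts. The blastocyst sums were carried by Krt18, which averaged 799 in controls and 390 in KD, and Krt8, at 343 and 239. Limma called Krt18 lower there (-1.02, adjusted p 0.00126), and in morulae Nanog (-2.23, adjusted p 0.00645), which averaged 106 in controls and 20.7 in KD. In blastocysts Nanog averaged 132 and 161, Pou5f1 14.0 and 25.7, and Cdx2 1.79 and 1.89, and none of these 3 was called. Of 6 cumulus cell markers, Amhr2 was the most abundant, at 11.9 FPKM in control 2-cell embryos, and Ptx3 was listed at 0 in all libraries. The 6 summed to between 3.87 and 18.4 FPKM over the 22 libraries.

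The KD blastocyst libraries did not resemble each other in these transcripts. In replicates 1, 4, 5 and 6, the 5 markers of 2-cell embryos summed to 8.31, 19.1, 4.09 and 27.8 FPKM. In the control blastocysts with the same numbers they summed to 2.63, 3.36, 0.428 and 2.07. Replicates 4 and 6 therefore stood apart on the high side in these markers. The Usp17l genes summed to 3.31, 9.15, 2.02 and 6.65 FPKM in the 4 KD libraries, and the Tdpoz genes to 12.3, 29.7, 10.8 and 27.4. Single members differed in this, since Tdpoz2 was highest in replicate 1, and Tdpoz1 and Usp17le in replicate 5. Relative depth in the same 4 KD libraries was 21.2, 19.6, 20.0 and 17.2 on the scale defined in the methods. What part stage markers or depth have in the results below was not tested. Several blastocyst results are also given without replicates 4 and 6, a choice made after seeing their values.

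**Figure D1:**
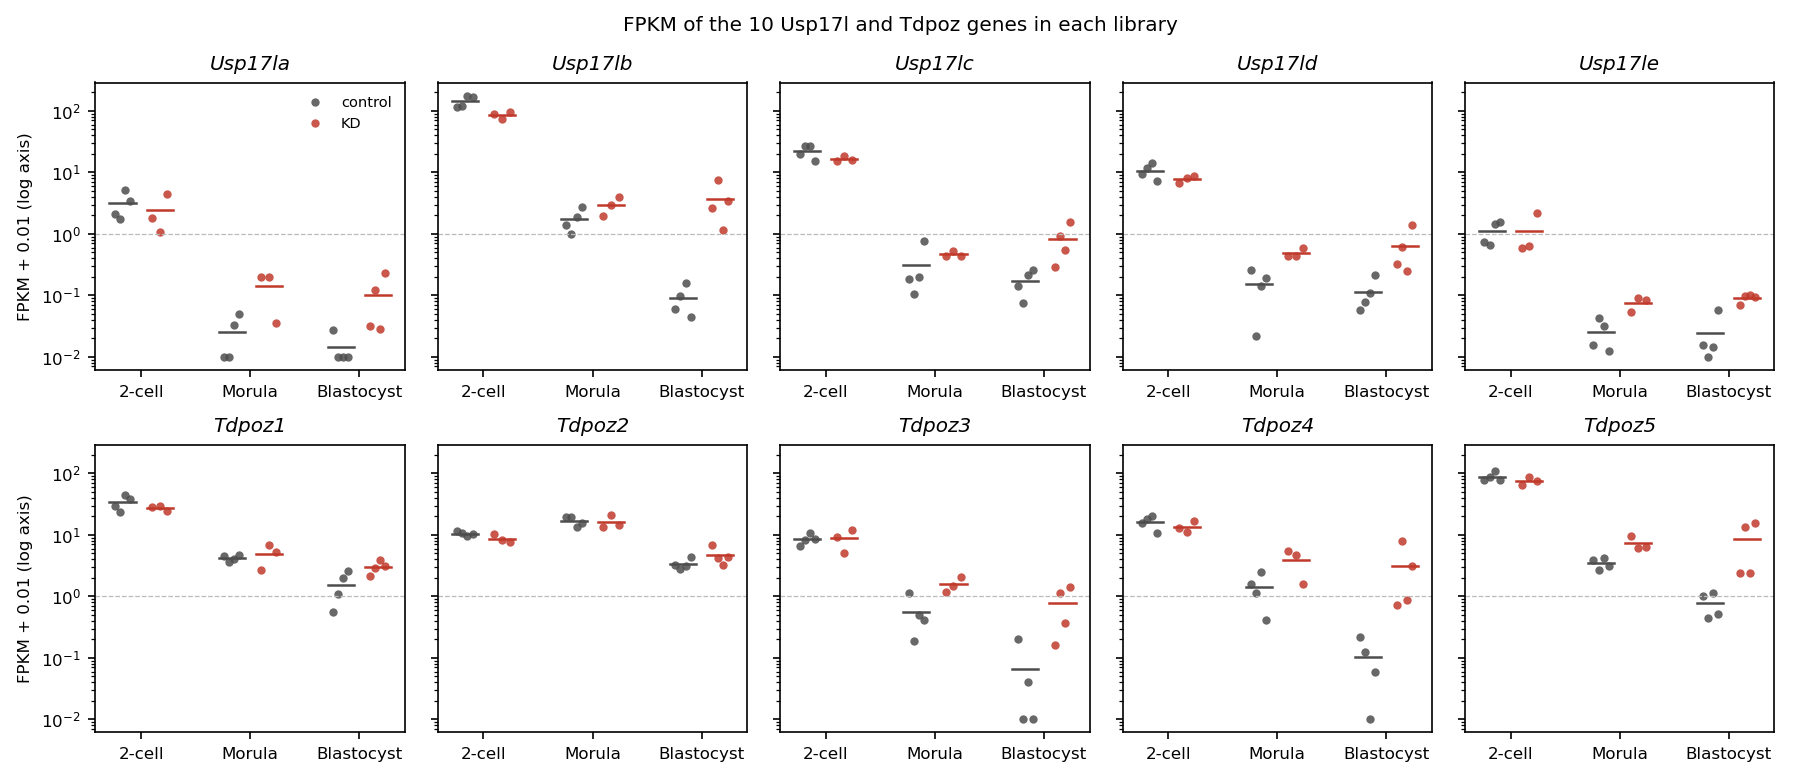
FPKM of the 10 genes in every library, by stage and treatment, on a log axis. Each point is 1 library of 15 embryos, and the dashed line marks 1 FPKM.

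Usp17lb was the most abundant member in 2-cell embryos, with 79.6% of the summed Usp17l FPKM in controls. It measured 114, 121, 178 and 169 FPKM in the control 2-cell libraries and 88.6, 74.8 and 96.1 in the KD libraries. Each KD library was below each control library. Of the 12160 genes tested there, 4.13% showed that pattern, and Usp17lb was the 1 member of 10 that did. Its log2 fold change was -0.66 (SE 0.19, limma p 0.00489, adjusted p 0.828), and the exact permutation test gave p 0.0571. The difference thus did not pass the test over all genes.

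In morulae Usp17lb measured 1.39, 1.00, 1.84 and 2.69 FPKM in controls and 1.96, 2.89 and 4.01 in KD. The groups overlapped, because control replicate 8 exceeded KD replicate 1. In control blastocysts it measured 0.0506, 0.0862, 0.150 and 0.0347 FPKM, against 2.63, 7.44, 1.13 and 3.41 in KD. Here the groups were far apart, and the lowest KD library was above the highest control. The mean of the KD blastocysts was 45.4 times the control mean, yet it was 2.51% of the control 2-cell level. Without KD replicates 4 and 6 it was 23.4 times the control mean and 1.29% of that level. By limma its log2 fold change was 0.62 (SE 0.26, adjusted p 0.139) in morulae and 1.95 (SE 0.34, adjusted p 0.000948) in blastocysts.

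In order of mean level, Usp17lb ran from control 2-cell (145) and KD 2-cell (86.5) to KD blastocysts (3.65), KD morulae (2.95), control morulae (1.73) and control blastocysts (0.0804). The 3 groups in the middle of the lower range, KD blastocysts, KD morulae and control morulae, overlapped with each other. Control blastocysts were below every library of the other 5 groups.

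Tdpoz5 was the most abundant Tdpoz member in 2-cell embryos, with 56.2% of the summed Tdpoz FPKM in controls. It measured 77.5, 88.8, 110 and 78.9 FPKM in control and 64.3, 86.8 and 74.9 in KD 2-cell libraries. These groups overlapped, with a log2 fold change of -0.16 (SE 0.16, limma adjusted p 0.871). In morulae it measured 3.87, 2.72, 4.21 and 3.06 in controls and 9.64, 6.05 and 6.31 in KD. Each KD morula library was above each control.

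In blastocysts Tdpoz5 measured 1.02, 0.441, 1.11 and 0.512 FPKM in controls and 2.40, 13.5, 2.39 and 15.4 in KD. The groups did not overlap, and KD replicates 4 and 6 were far above KD replicates 1 and 5. The log2 fold change was 0.99 (SE 0.19, limma adjusted p 0.00952) in morulae, just under the fold threshold, and 2.06 (SE 0.49, limma adjusted p 0.00612) in blastocysts. The KD blastocyst mean was 10.9 times the control mean and 9.49% of the control 2-cell level. Without KD replicates 4 and 6 these were 3.11 times and 2.69%. In order, Tdpoz5 averaged 88.8 in control 2-cell, 75.3 in KD 2-cell, 8.42 in KD blastocysts, 7.33 in KD morulae, 3.47 in control morulae and 0.769 in control blastocysts. The 2-cell groups overlapped, and KD blastocysts overlapped with both morula groups.

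Tdpoz4 measured 15.3, 18.4, 20.1 and 10.6 FPKM in control and 12.8, 11.0 and 17.1 in KD 2-cell libraries, with overlap. In morulae it measured 1.6, 1.12, 2.47 and 0.408 in controls and 5.44, 4.72 and 1.57 in KD, where KD replicate 6 lay among the controls. In blastocysts it measured 0.208, 0.114, 0 and 0.0488 in controls and 0.710, 7.93, 0.854 and 3.10 in KD. Each KD blastocyst library was above each control. The KD mean was 34.0 times the control mean, and 8.43 times without KD replicates 4 and 6. Tdpoz4 did not pass the filter on low FPKM in blastocysts, so it has no test in the fit. Without a filter its log2 fold change was 1.59 (SE 0.52, limma adjusted p 0.101).

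Tdpoz2 had another course from the rest. It averaged 10.5 FPKM (SD 0.767, n = 4) in control 2-cell embryos, 17.1 (SD 3.17, n = 4) in control morulae and 3.35 (SD 0.687, n = 4) in control blastocysts. Its control morula mean was 163% of its control 2-cell mean, so the name 2-cell family does not describe it. For the other 9 members that percentage ran from 0.502 for Usp17la to 12.5 for Tdpoz1. In KD, Tdpoz2 averaged 8.70 (SD 1.38, n = 3), 16.4 (SD 3.87, n = 3) and 4.70 (SD 1.57, n = 4), and KD overlapped with control at each stage.

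The remaining members were lower or moved less. Tdpoz1 averaged 34.0 FPKM (SD 9.19, n = 4) in control 2-cell embryos and 4.26 (SD 0.519, n = 4) in control morulae. In blastocysts it averaged 1.55 (SD 0.908, n = 4) without KD and 3.01 (SD 0.719, n = 4) with it, and these groups overlapped. Tdpoz3 averaged 8.50 (SD 1.76, n = 4) in control 2-cell embryos. In morulae it measured 1.11, 0.176, 0.482 and 0.404 FPKM in controls and 1.16, 1.48 and 2.04 in KD. These do not overlap, by a narrow margin to control replicate 1.

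Among the other Usp17l genes, Usp17lc averaged 22.3 FPKM (SD 5.67, n = 4) in control 2-cell embryos. Usp17ld averaged 10.7 (SD 3.18, n = 4), Usp17la 3.13 (SD 1.59, n = 4) and Usp17le 1.09 (SD 0.467, n = 4). All 4 averaged under 1 FPKM in each morula and blastocyst group, and each KD blastocyst library was above each control. In blastocysts Usp17la was listed at 0 in 3 of 4 control libraries. Its lowest KD blastocyst library, at 0.0188 FPKM, was barely above the control at 0.0170, and with scaling its groups overlapped.

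Over the whole families, the 5 Usp17l genes summed to a mean of 183 FPKM (SD 35.3, n = 4) at the 2-cell stage in controls, against 114 (SD 12.3, n = 3) under KD. The sums were 2.21 (SD 1.07, n = 4) and 4.09 (SD 1.03, n = 3) in morulae, and 0.367 (SD 0.156, n = 4) and 5.28 (SD 3.23, n = 4) in blastocysts. The 5 Tdpoz genes summed to 158 (SD 24.9, n = 4) and 134 (SD 7.94, n = 3) in 2-cell embryos. They summed to 26.8 (SD 3.14, n = 4) and 34.1 (SD 5.18, n = 3) in morulae, and 5.82 (SD 1.33, n = 4) and 20.0 (SD 9.87, n = 4) in blastocysts. Without KD replicates 4 and 6 the KD blastocyst sums were 2.66 (SD 0.911, n = 2) for Usp17l and 11.6 (SD 1.12, n = 2) for Tdpoz. The control blastocyst sums were thus a small part of the 2-cell sums in both families, with more left in the Tdpoz genes, mostly Tdpoz2.

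All 10 members passed the filter in 2-cell embryos, and limma called 0 of them. It called 0 of all 12160 genes there (0%), while 701 genes and 1 member had an unadjusted p under 0.05. Before scaling, the mean log2(FPKM + 1) of all 10 members was lower in KD, but after scaling Usp17le (0.011) and Tdpoz3 (0.058) were higher. The mean FPKM of these 2 was above control before scaling too, at 1.12 and 8.82 in KD. In morulae 6 members passed (Usp17lb and the 5 Tdpoz genes), and limma called 0 of 6, where it called 3.59% of the genes tested. Of those 6, 4 had an unadjusted p under 0.05, as did 30.5% of the genes tested. The libraries were also put in 2 ranges by replicate number, 1 or 2 and higher. Deviations of control and KD libraries from their group means correlated at 0.094 to 0.35 within these ranges in morulae and at -0.28 to -0.094 across them. In 2-cell embryos these values were -0.021 to 0.21 and -0.24 to 0.010. In blastocysts (1 or higher) they were -0.34 to 0.35 and -0.38 to 0.40, with no such split. With low and high numbers as batches, limma called 1 of 6 members in morulae, Tdpoz5 (1.00, adjusted p 0.00796). In that fit 1.07% of the genes tested were called higher and 2.28% lower. What part such batches have elsewhere was not tested beyond this term. Without it Tdpoz3 had a log2 fold change of 0.82 (SE 0.21, adjusted p 0.0281) and Tdpoz4 of 1.09 (SE 0.35, adjusted p 0.0627). Each of these, like Tdpoz5, missed 1 of the 2 thresholds. Tdpoz3 had 1 FPKM or more in 1 control and 3 KD morula libraries, so it passed the filter mainly through KD libraries.

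In blastocysts 4 members passed (Usp17lb, Tdpoz1, Tdpoz2, Tdpoz5), and limma called 2 of them higher in KD, Usp17lb and Tdpoz5. Of the genes tested, 6.10% were called higher. Usp17lb passed the filter through its KD libraries alone, since its controls were all under 1 FPKM, so its entry into the test already required a difference. Tdpoz5 had 1 FPKM or more in 2 of 4 controls, so it too needed KD libraries to reach the 3 that the filter asks for. Tdpoz1 had a log2 fold change of 0.72 (SE 0.23, limma adjusted p 0.0298) and Tdpoz2 of 0.37 (SE 0.23, limma adjusted p 0.231). With no filter, the 10 members were all higher in KD and 1 of them, Usp17lb, was called (limma adjusted p 0.0219), where 1.75% of the 34540 genes tested were called higher. Usp17le had a limma adjusted p of 0.0167, at a log2 fold change of 0.091. Tdpoz5 then had a limma adjusted p of 0.0681.

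Without KD replicates 4 and 6, with 2 KD libraries left, limma called 0 of the 3 members that then passed the filter in blastocysts, and 1 of the 3 had an unadjusted p under 0.05. Of the 11258 genes tested in that fit, 5.94% were called higher, 9.60% lower, and 39.4% had an unadjusted p under 0.05. Usp17lb failed the filter in that fit, having 1 FPKM or more in 2 libraries only. Tdpoz5 kept an adjusted p of 0.0150 by limma, but its log2 fold change was 0.94, under the fold threshold. Over all alternatives tried, its adjusted p ran from 0.00284 to 0.0681. With both libraries left out Tdpoz5 thus lost its call, while Usp17lb was not tested. The controls of Usp17lb were all under 1 FPKM, so 2 KD libraries could not meet the filter whatever their values. Its KD mean was then 23.4 times the control mean. The values of replicates 1 and 5 alone were above each control for both genes. Leaving out any single library kept both calls.

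**Figure D2:**
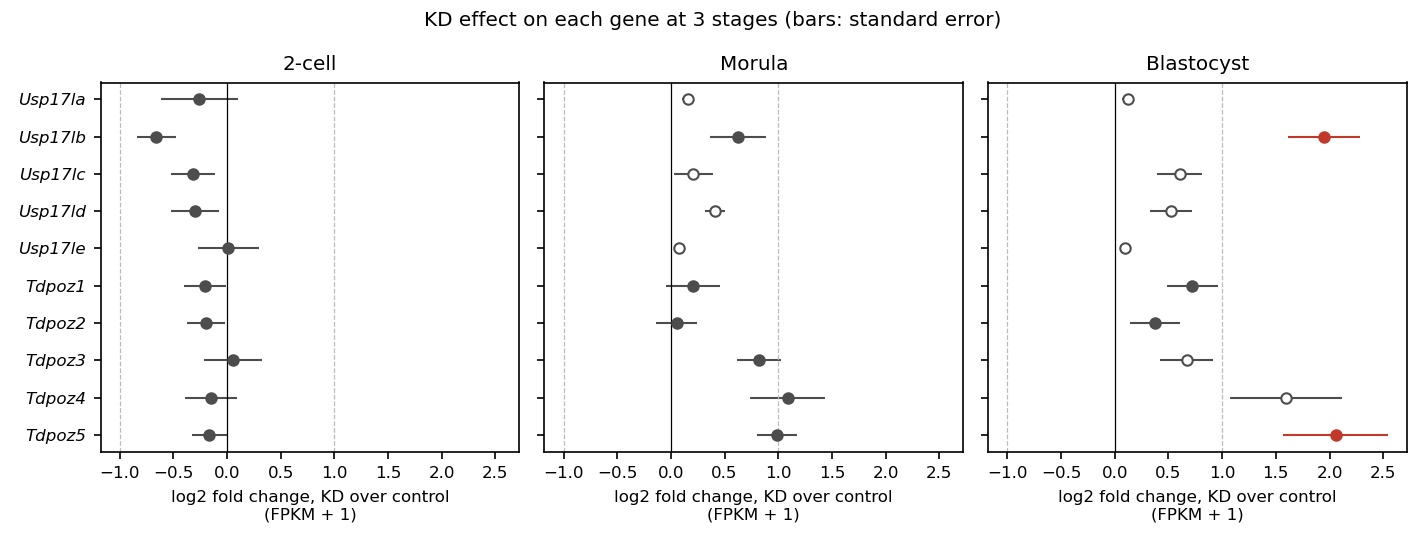
Log2 fold changes of KD against control with limma standard errors for the 10 members. Open symbols are from the fit without a filter, and red marks a call. At the 2-cell stage Usp17le and Tdpoz3 change sign without scaling, as does Tdpoz2 in morulae.

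The groups of single members were also compared on deposited FPKM, filter or not. In morulae each KD library was above each control for 4 of 10 members (Usp17ld, Usp17le, Tdpoz3, Tdpoz5), a pattern held by 4.63% of genes above 0 at that stage. Among the 6 members tested in morulae it held for 2, Tdpoz3 and Tdpoz5, against 6.70% of the genes tested. In blastocysts it held for 7 of 10 members (the 5 Usp17l genes, Tdpoz4, Tdpoz5), against 8.41% of genes above 0. Among the 4 members tested in blastocysts it held for 2, Usp17lb and Tdpoz5, against 14.6% of the genes tested. The members were chosen with such results known, so these shares describe them and test nothing.

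The exact permutation test was run for the 10 members at the 3 stages. Of these 30 tests, 10 had an unadjusted p under 0.05, of which 3 belong to morulae, 7 to blastocysts and 0 to the 2-cell stage. Each of the 10 had p 0.0286, the smallest these group sizes can give. After adjustment over the 30 tests 0 passed, and the smallest exact permutation adjusted p was 0.0857. Groups of these sizes cannot give an unadjusted exact permutation p under 0.0286, so these tests say little about size.

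Whether KD changed a member more in blastocysts than in morulae was tested as a difference of differences. Limma called 0 of the 6 members that passed, where it called 7.71% of the genes tested, and 1 member had an unadjusted p under 0.05, as did 27.3% of the genes. For Usp17lb the difference was 1.26 (SE 0.48, limma adjusted p 0.0950), and for Tdpoz5 it was 1.01 (SE 0.62, limma adjusted p 0.306). Without KD blastocyst replicates 4 and 6 these were 0.69 and -0.099, so that of Tdpoz5 turned. Usp17lb was called with a pseudocount of 0.1 and without KD blastocyst replicate 5, where 4.93% and 3.47% of all genes were called higher. So a call in blastocysts and not in morulae is not shown to be a difference between the stages.

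From morulae to blastocysts, limma called 5 of 6 members lower in control embryos, while 11.4% of the genes tested were called lower. Of these 5, Usp17lb (at most 0.150 FPKM) and Tdpoz4 (at most 0.208) were under 1 FPKM in all control blastocysts. They passed the filter through other libraries alone, so the filter favours a fall for them. Tdpoz2 fell by 2.08 on the log2 scale (SE 0.21, limma adjusted p 3.73e-07), Tdpoz5 fell by 1.36, Usp17lb fell by 1.31, Tdpoz1 fell by 1.15 and Tdpoz4 fell by 1.05 (limma adjusted p 0.0443). The count was 3 without a filter, where 3.82% of all genes were called lower, and 3 without control blastocyst replicate 1 (10.8%). It was 6 with a pseudocount of 0.1, where 17.2% were. Tdpoz4 lost its call with low and high replicate numbers as batches and without any 1 of 7 control libraries. Tdpoz3, at -0.50, was not called (SE 0.22, limma adjusted p 0.0585). In KD embryos limma called 1 of 6 lower, Tdpoz2 at -1.80 (SE 0.23, adjusted p 1.61e-05), where 5.85% of the genes tested were called lower. Leaving out single libraries, it called 1 to 2 lower, beside 5.43 to 6.58% of the genes tested. Without KD blastocyst replicates 4 and 6 it called 4 of 6 lower (Tdpoz2, Tdpoz3, Tdpoz4 and Tdpoz5), where 6.05% of the 12531 genes tested were called lower. The difference between the control and the KD course is the difference of differences above, which was called for none of the 6 members.

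KD blastocysts were also set against control morulae, the stage before. Limma called 1 of 6 members lower, Tdpoz2 at -1.74 (SE 0.21, adjusted p 1.07e-05), where 4.60% of the genes tested were called lower. Tdpoz5 was at 0.66 (SE 0.42, limma adjusted p 0.233) and Usp17lb at 0.59 (SE 0.32, limma adjusted p 0.168). Without replicates 4 and 6, Tdpoz5 was at -0.45 and Usp17lb at 0.015. Some of these comparisons share libraries, so their values are not independent of each other.

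Each family lies on 1 chromosome. The 5 Tdpoz genes lie within 310 kb of chromosome 3 (chr3:93651542-93961314, mm10), and the 5 Usp17l genes within 1613 kb of chromosome 7 (chr7:103249737-104862667, mm10), with genes on both strands in each. Usp17lc and Usp17ld lie at 1 end of that stretch and the other 3 Usp17l genes at the other. All 10 are annotated as protein coding. Between members, transcript identity ran from 89.6 to 98.3% (median 90.8) among Usp17l genes and from 78.2 to 88.3% (median 83.5) among Tdpoz genes.

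Such copies limit what a read can say about 1 gene. Of all stretches of 150 bases, the read length, in the annotated transcript, 97.8% were found in no other annotated gene for Usp17lb, 98.7% for Usp17la and 99.2% for Usp17le. For Usp17lc it was 70.6% and for Usp17ld 63.9%, the rest being shared mainly between these 2. For Tdpoz1 to Tdpoz4 it was 87.7, 91.2, 66.6 and 93.5%. For Tdpoz5 it was 0%, since its transcript is identical over its full length to that of Gm10697, which RefSeq names Tdpoz7. Values listed for Tdpoz5 and Gm10697 therefore cannot be told apart by such reads.

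Many relatives lie beside the members. In all, 23 other annotated genes were at least 80% identical to a Tdpoz member, 9 of them protein coding and 14 pseudogenes, and 20 of the 23 were at 1 FPKM or more in control 2-cell embryos. For Usp17l there were 2, both pseudogenes under 1 FPKM. Limma called 0 of 20 tested Tdpoz relatives in 2-cell embryos (6 had an unadjusted p under 0.05), 1 of 14 higher in morulae and 7 of 12 higher in blastocysts. Over all genes tested, 1.00% were called higher in morulae and 6.10% in blastocysts. Their median log2 fold changes were -0.32, 0.19 and 1.04, beside 0.0036, 0.015 and 0.0047 over all genes tested. The relative called in morulae was Gm10697, whose reads cannot be told from those of Tdpoz5. Gm37596 and Gm5543 also share stretches of read length with Tdpoz5, and all 3 were among the relatives called in blastocysts. The calls of these 3 are therefore not independent of the Tdpoz5 result. In blastocysts 7 of the 12 tested, and 4 of the 7 called, had every control under 1 FPKM and so passed the filter through KD libraries. Of all 11828 genes tested there, 357 did, so the filter itself in part fixes this count and median. In KD blastocyst replicates 1, 4, 5 and 6 the 23 relatives summed to 30.2, 68.1, 28.5 and 65.6 FPKM, so replicates 4 and 6 were again high. Without those libraries 3 relatives passed the filter and limma called 0, with 2 at an unadjusted p under 0.05. All 3 were higher, with a median of 0.92. With 2 KD libraries left, no relative with every control under 1 FPKM could pass, so the filter in part fixes this count too.

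Gm10697 averaged 3.79 FPKM (SD 0.380, n = 4) in control morulae against 8.60 (SD 1.58, n = 3) under KD, with a log2 fold change of 1.10 (SE 0.16, limma adjusted p 0.00378). In blastocysts it averaged 0.766 (SD 0.345, n = 4) and 7.12 (SD 5.44, n = 4), with 1.93 (SE 0.43, limma adjusted p 0.00464). It was not called in morulae without scaling (0.99), nor in blastocysts without a filter (limma adjusted p 0.0559) or without KD replicates 4 and 6 (0.96). Gm5543, a pseudogene 97.0% identical to Tdpoz5, averaged 114 FPKM (SD 44.7, n = 4) in control 2-cell embryos. It had 1.70 (SE 0.39, limma adjusted p 0.00536) in blastocysts, where it passed the filter through KD libraries alone, and it was not called without a filter (limma adjusted p 0.0611). Gm9117, Gm5286 and Gm9124 had 0.72, 0.81 and 0.97 there and were not called, though all 3 were with a pseudocount of 0.1.

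**Figure D3:**
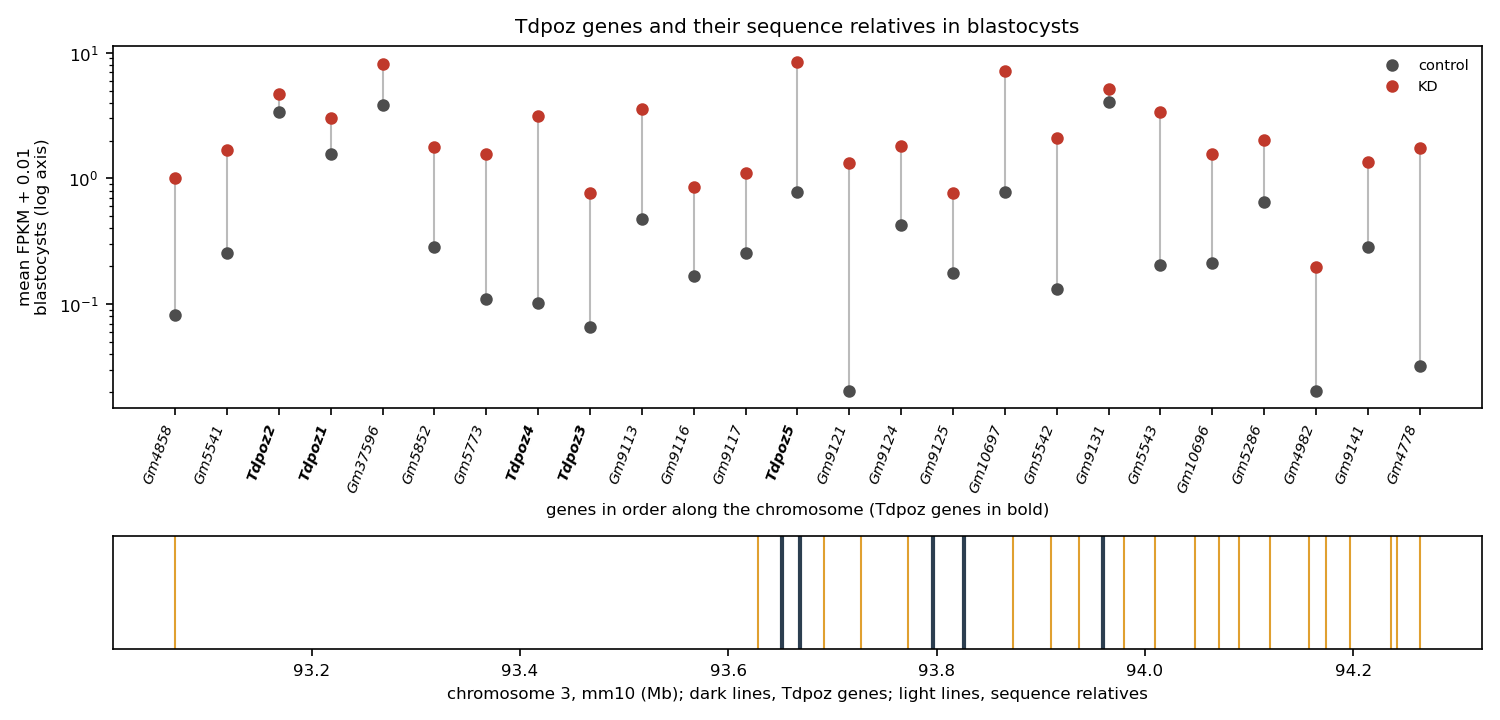
Mean FPKM in control and KD blastocysts along the Tdpoz region of chromosome 3, members and relatives.

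Other genes known from 2-cell embryos were tested as well. Of 34 such genes in the table, limma called 0 of 32 tested in 2-cell embryos, where 3 had an unadjusted p under 0.05. It called 1 higher and 1 lower of 24 in morulae, Ddit4l (1.05, adjusted p 0.00375) and Zfp560 (-1.05, adjusted p 0.00877), beside 1.00% and 2.59% of all genes tested. In blastocysts it called 10 higher and 2 lower of 21, with a median of 1.01, where 6.10% of all genes tested were called higher and 7.76% lower. Of these 21, 4 tested and 3 of the 10 called higher had every control under 1 FPKM, so the filter leans count and median upward. Obox6 (3.36, limma adjusted p 9.69e-07), Sp110 (2.81, limma adjusted p 4.53e-06) and Tcstv3 (2.01, limma adjusted p 0.0145) were the highest of these. Tcstv3 was not called without a filter (limma adjusted p 0.115) or without KD replicates 4 and 6 (0.95). Zfp560 (-1.72, limma adjusted p 0.000167) was lower, as was Tdgf1 (-2.28, limma adjusted p 3.00e-05). Tdgf1 was not a 2-cell transcript in this table, at 0.275 FPKM in control 2-cell embryos and 80.6 in control blastocysts. Without replicates 4 and 6 the counts were 4 higher and 2 lower of 16, beside 5.94% and 9.60% of all genes tested in that fit. With 2 KD libraries left, genes with every control under 1 FPKM could not pass its filter.

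Genes of the same biochemical kinds were tested too. Of other ubiquitin-specific peptidases, limma called 0 of 41, 0 of 30 and 0 of 34 tested at the 3 stages, with 1, 16 and 14 at an unadjusted p under 0.05. Of Cul3, its partners and BTB adaptors, limma called 0 of 20, 0 of 17 and 0 of 18, with 1, 1 and 8 at an unadjusted p under 0.05. Over all genes tested those with such a p were 701 of 12160, 3350 of 10989 and 5440 of 11828. Limma called 0, 395 and 1640 of these.

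The genes whose pattern was most like each family were found by correlation over libraries. Over all 22 libraries the closest to the mean of the Usp17l genes were Gm9125, Gm5286, Gm5117, Gm13693 and Gm13696, with Pearson r from 0.992 down to 0.991. The first 2 are Tdpoz relatives. Over the 15 morula and blastocyst libraries the closest were Gm4850, Pramef25, Esp24, Gm4778 and Gm5117 for Usp17l (r 0.949 to 0.914). For Tdpoz they were F730035P03Rik, mt-Tr, mt-Tg, Gm11544 and Gm47381 (r 0.974 to 0.947). The libraries differ in both stage and treatment, so the values describe differences in both and do not separate them. Esp24, for example, averaged 1.36 FPKM in control and 5.31 in KD morulae, and 0 in control and 9.52 in KD blastocysts.

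Promoter windows of RefSeq (GRCm38.p6, 250 bases before to 50 after the start) were matched for 7 of 10 members. Tdpoz2, Tdpoz3 and Usp17le had no entry. The 4 Usp17l windows are similar copies, with aligned stretches of 206 to 284 bases that were 87.3 to 96.8% identical. Within them lies an identical run of 29 bases, which 4 of all 32851 windows hold (0.0122%). It begins at -141 in Usp17la, -126 in Usp17lb, -183 in Usp17lc and -205 in Usp17ld. The run was sought within these copies, so its share of all windows describes their likeness, and matches in them are not independent. The letters TATAAA, on either strand, were found in 3 of 7 member windows, all of Usp17l genes, and 13.6% of all windows. CCAAT was found in 6 of 7 and 37.4%, and TAATCC in 1 of 7 (Tdpoz1) and 7.06%. A match is a description of the letters and not of a site in use. The windows below are shown because members with unlike levels share this run, and the capitals mark it, and TATAAA where present. They are Usp17la (chr7:104856766-104857065, + strand), Usp17lb (chr7:104842534-104842833, - strand), Usp17lc (chr7:103416446-103416745, + strand) and Usp17ld (chr7:103252456-103252755, - strand).
Usp17la: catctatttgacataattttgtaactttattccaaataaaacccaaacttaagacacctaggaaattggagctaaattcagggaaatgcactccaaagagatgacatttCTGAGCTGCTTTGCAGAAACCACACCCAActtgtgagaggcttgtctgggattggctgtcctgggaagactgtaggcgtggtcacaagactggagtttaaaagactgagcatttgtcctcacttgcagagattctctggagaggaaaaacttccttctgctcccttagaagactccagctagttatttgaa
Usp17lb: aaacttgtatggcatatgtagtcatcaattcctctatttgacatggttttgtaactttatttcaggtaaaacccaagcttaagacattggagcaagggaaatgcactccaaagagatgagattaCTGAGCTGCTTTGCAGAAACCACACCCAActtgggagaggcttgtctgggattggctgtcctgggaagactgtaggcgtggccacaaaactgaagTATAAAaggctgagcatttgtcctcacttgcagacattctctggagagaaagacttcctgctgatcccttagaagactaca
Usp17lc: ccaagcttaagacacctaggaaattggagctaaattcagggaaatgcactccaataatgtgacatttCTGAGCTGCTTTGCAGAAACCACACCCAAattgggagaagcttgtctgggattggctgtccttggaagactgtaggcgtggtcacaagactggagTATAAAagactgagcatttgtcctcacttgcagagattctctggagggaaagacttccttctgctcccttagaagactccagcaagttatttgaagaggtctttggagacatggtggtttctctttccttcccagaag
Usp17ld: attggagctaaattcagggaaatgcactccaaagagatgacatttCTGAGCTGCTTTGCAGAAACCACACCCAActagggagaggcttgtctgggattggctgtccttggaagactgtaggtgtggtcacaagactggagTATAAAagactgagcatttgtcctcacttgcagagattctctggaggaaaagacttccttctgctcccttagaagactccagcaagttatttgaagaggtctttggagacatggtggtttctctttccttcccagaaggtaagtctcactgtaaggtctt

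The Tdpoz5 window (chr3:93961265-93961564, - strand, GRCm38.p6, RefSeq) is identical to that of Tdpoz7 at 299 of 300 bases, the difference being G179A. It is shown as the annotated start region of the most abundant Tdpoz member in 2-cell embryos, with CCAAT in capitals. The annotated start falls on the letters ATG, and the annotated transcript is 1 exon. The window is placed by that annotation, so it need not be the promoter, and where transcription starts was not tested.
Tdpoz5: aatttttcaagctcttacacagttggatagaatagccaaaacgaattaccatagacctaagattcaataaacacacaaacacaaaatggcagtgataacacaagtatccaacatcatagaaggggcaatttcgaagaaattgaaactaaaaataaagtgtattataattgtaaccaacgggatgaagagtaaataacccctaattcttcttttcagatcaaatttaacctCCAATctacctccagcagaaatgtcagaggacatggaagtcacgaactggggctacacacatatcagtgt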

How the data were processed

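The authors sequenced polyA RNA of 22 libraries of 15 embryos each, made with Smart-seq2, as paired reads of 150 bases. Per the labels, the processing used STAR with mm10, StringTie 2.1.4 and, on counts from featureCounts 1.6.2, DESeq2 1.30.1. The deposited table gives FPKM, and read counts were not used here. The members and gene lists were chosen with earlier results of these data known.

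Libraries were put on 1 scale with median-of-ratios factors from genes above 0 in all libraries of a fit. Factors were centred to a geometric mean of 1, and ran from 0.943 to 1.09 in 2-cell embryos, 0.912 to 1.17 in morulae, 0.893 to 1.12 in blastocysts and 0.874 to 1.16 in the fit of 15 libraries. They were centred only after a first run without it, when the numbers of genes called (387 in morulae, 1626 in blastocysts) were seen to differ from those known for the whole series. Centred, they are 395 and 1640, and the numbers of members called in the 7 comparisons were the same both ways.

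Tests used limma 3.58.1 in R 4.3.3 (lmFit, eBayes with trend) on log2(FPKM + 1), 1 fit per stage and 1 over the 15 morula and blastocyst libraries. Genes needed at least 1 FPKM in at least 3 libraries, and p-values were adjusted by Benjamini-Hochberg over all genes tested. The fits were tested on simulated data. Single members were also compared by exact permutation of libraries on deposited FPKM.

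Relative depth was read from the steps between low values of FPKM times length in 13491 single-exon genes of at least 300 bases. It is a ratio and not a read count, so no counting interval is given. It ran from 14.8 to 28.7, with medians of 25.1 (control) and 23.2 (KD) in 2-cell embryos, 23.9 and 24.0 in morulae, and 17.7 and 19.8 in blastocysts. Only 9.05 to 20.9% of low values lay within 1% of a whole step.

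Positions and transcripts are from GENCODE M21, and identity was computed with BLAST 2.17.0. Relatives needed 80% identity over at least 50% of a member transcript. Alternatives were a pseudocount of 0.1, no filter, no scaling, each library left out, replicate number as a block, range of replicate numbers as a batch and, for relatives, 90% identity. Added after seeing the data were factors not centred, KD blastocyst replicates 4 and 6 both left out, and the alternatives for genes other than the members.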

Additional observations from a re-analysis of the deposited data

Results flagged for a closer look

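In 40 groups of 4 libraries (10 members, 4 groups each), a library was looked for whose gap to the next took up most of the group's range on the log2 scale (Dixon's test for 4 values). Chance alone gives this in about 1 in 20 groups. Usp17la measured 0.0170 FPKM in control blastocyst replicate 1, while the other 3 libraries were at 0. With the others at 0, any value above 0 would have been flagged, so this flag says little. Usp17le measured 0.0480 FPKM in control blastocyst replicate 6, above a highest value of 0.00533 in the others. Tdpoz3 measured 0.194 FPKM in control blastocyst replicate 1, above a highest value of 0.0308 in the others. The KD and control groups of Usp17lb did not overlap at 2 stages, with differences of opposite sign, at -0.72 on the log2 scale in 2-cell embryos and 1.93 in blastocysts. The difference in 2-cell embryos did not pass the test. The difference of Usp17lb between these 2 stages was not tested.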

How the results depend on the processing

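Each result was recomputed with 1 choice changed at a time. For single genes, 24 results changed sign under at least 1 alternative (43 limma and 3 exact permutation values), and none had been called. Causes were not tested. Ranges are over fits leaving out 1 library, and the libraries named changed the sign or call.

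In 2-cell embryos limma called 0 members under all alternatives, and 1 member had an unadjusted p under 0.05. Usp17le was at -0.048 with a pseudocount of 0.1, at -0.031 without scaling and ran from -0.082 to 0.18 (control replicates 1 and 2). Tdpoz3 was at -0.0047 without scaling and ran from -0.20 to 0.41 (control replicate 1, KD replicates 1 and 4). Usp17la ran from -0.66 to 0.077 and Tdpoz4 from -0.33 to 0.020 (KD replicate 2 for both). Obox6 was at -0.060 without scaling, at -0.027 with the batch term and ran from -0.077 to 0.061 (control replicate 4, KD replicates 1 and 2). Tcstv3 ran from -0.019 to 0.38 (control replicate 5), Ddit4l from -0.29 to 0.11 (control replicate 2, KD replicate 4) and Sp110 from -0.11 to 0.27 (control replicate 2). H2afz was called without KD replicate 1 (-3.12).

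In morulae the number called went from 0 to 2 with a pseudocount of 0.1 (Tdpoz3, Tdpoz5) and to 1 with the batch term (Tdpoz5). Of all genes, 1.87% and 1.07% were then called higher (main fit 1.00%). Leaving out single libraries gave 0 to 2 (0.741 to 1.34%): Tdpoz4 and Tdpoz5 without control replicate 7 or KD replicate 6, and Tdpoz5 without KD replicate 2. Tdpoz2 was at -0.063 without scaling and ran from -0.12 to 0.20 (control replicate 7, KD replicate 2), and Tdpoz1 ran from -0.030 to 0.54 (KD replicate 2). Gm5286 was at 0.013 with the batch term and ran from -0.14 to 0.096 (control replicate 8, KD replicate 2). Tcstv3 ran from -0.063 to 0.36 (control replicate 2) and Tdgf1 from -0.46 to 0.10 (KD replicate 1). Without scaling Ddit4l (0.93) and Gm10697 (0.99) were not called. Ddit4l also lost its call without control replicate 7 (1.00) or KD replicate 2 (0.99). Zfp560 did so without a filter, control replicate 7 (-0.95) or 8 (-0.95) or KD replicate 6 (-0.99). Sp110 was called without control replicate 1 (limma adjusted p 0.0265).

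Blastocysts gave 2 calls (6.10% of genes called higher) and 1 without a filter (1.75%), Usp17lb. A pseudocount of 0.1 gave 3 (9.38%), Usp17lb at 4.14, Tdpoz1 at 1.09 and Tdpoz5. Leaving out single libraries gave 2 (5.22 to 6.78%), with Usp17lb from 1.59 to 2.28 and Tdpoz5 from 1.67 to 2.45. Without KD replicates 4 and 6, chosen for their high values, 0 of 3 tested were called. The filter then barred Usp17lb, so its loss tests nothing. This setting was run, taken out and put back. In it the difference of differences was -0.44 for Tdpoz4 and -0.099 for Tdpoz5. Against control morulae, Tdpoz3 was then at -0.29, Tdpoz4 at -0.39 and Tdpoz5 at -0.45. Against KD morulae 4 members were then called lower. Gm10697 (0.96) and Tcstv3 (0.95) were then not called. Without a filter Gm10697, Gm5543 and Tcstv3 lost their calls (limma adjusted p 0.0559, 0.0611 and 0.115). A pseudocount of 0.1 called Gm9117 (1.76), Gm5286 (1.42) and Gm9124 (2.00). Gm9124 was also called without control replicate 1 (1.15) or KD replicate 5 (limma adjusted p 0.00235), and Gm5286 without KD replicate 5 (1.05).

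The difference of differences gave 1 call (Usp17lb) with a pseudocount of 0.1, and 0 to 1 leaving out single libraries (Usp17lb without KD blastocyst replicate 5). Tdpoz3 was at 0.54 with a pseudocount of 0.1, and Tdpoz4 ran from -0.050 to 0.75 (KD blastocyst replicate 4). Control blastocysts against control morulae gave 6 with a pseudocount of 0.1 (adding Tdpoz3 at -1.98), 3 without a filter (Tdpoz4 and Tdpoz5 lost, the latter at limma adjusted p 0.0567) and 3 to 5 leaving out single libraries. Tdpoz4 lost its call with the batch term and without control morula replicate 1, 2 or 7 or any 1 control blastocyst replicate, and Tdpoz1 without control blastocyst replicate 1. KD blastocysts against KD morulae gave 1 to 2, adding Tdpoz1 without KD morula replicate 1 and Tdpoz4 without KD blastocyst replicate 4. Usp17lb was there at 0.092 without scaling and ran from -0.41 to 0.30 (KD morula replicate 6, KD blastocyst replicate 5), and Tdpoz5 from -0.73 to 0.057 (KD blastocyst replicate 5). KD blastocysts against control morulae gave 1 to 2, adding Tdpoz5 as called higher (1.06) without KD blastocyst replicate 5. That fit called 6.42% of genes higher. The number lower was 1 throughout, and Tdpoz3 ran from -0.023 to 0.32 (KD blastocyst replicate 6). Without scaling the median of all genes was 0.11 in the difference of differences and 0.15 in KD blastocysts against KD morulae.

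With replicate number as a block, 2-cell Tcstv3 was at -0.019. The morula fit kept 1 residual degree of freedom and gave 2 calls (Tdpoz4, Tdpoz5), with 2.00% of genes called higher. Tdpoz2 was at -0.058 and Gm5286 at 0.18, Zfp560 (-0.71) lost its call and Sp110 (1.01) gained one. Same-numbered libraries (correlations of deviations -0.11 to 0.35) were not taken as pairs. The 3 comparisons between stages had no block.

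In the exact permutation tests, scaling put Usp17le (0.011) and Tdpoz3 (0.058) above 0 in 2-cell embryos and Tdpoz2 (0.056) in morulae. With scaling 2-cell Usp17lb reached the smallest possible p (exact permutation adjusted p 0.0857), and blastocyst Usp17la no longer had p under 0.05 (adjusted p 0.114). A pseudocount of 0.1 gave 9 instead of 10 exact permutation p-values under 0.05, losing Usp17ld in morulae (adjusted p 0.114). Factors not centred changed no number of members called. Relatives numbered 23 for Tdpoz and 2 for Usp17l at 80% identity, and 10 and 2 at 90%.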
